A study of Mus musculus with 8 samples.

Results

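The enzymes that carry glucose carbon to pyruvate and lactate and then through the citric acid cycle were followed as 38 listed genes among the 18301 genes of the deposited transcript table. They are 17 glycolytic genes, lactate dehydrogenase included, 5 transporters of glucose or lactate, 5 genes of the pyruvate dehydrogenase step and 11 genes of the citric acid cycle. The members were taken by gene symbol, counts were summed over all isoforms of a gene, and all 38 passed the filter on low counts that left 12898 genes to test. The study measured ribosome footprints and total RNA in mouse neurons at day 8 of culture, derived from the embryonic stem cell line CGR8, with 2 libraries in each of 4 groups. The groups are footprints and RNA of wildtype (WT) neurons and footprints and RNA of neurons labelled as Eif4g1/Eif4g3 double-knockout (DKO). All were grown in Neurobasal-A medium with B27, and cycloheximide at 100 µg/ml for 5 minutes stopped translation. Eif4g1 and Eif4g3 encode scaffold proteins that join the mRNA cap complex to the small ribosomal subunit. The comparison of genotypes asks how enzyme mRNAs and their translation differ between libraries labelled WT and DKO. The labels give neither the alleles nor the number of clones behind the genotype, and nothing in the labels says that the 2 libraries of a group came from separate differentiations, so the p-values measure only the spread between these libraries.

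Glycolysis phosphorylates glucose, splits it into triose phosphates and ends with pyruvate, which lactate dehydrogenase turns into lactate or the pyruvate dehydrogenase complex turns into acetyl-CoA inside mitochondria. The citric acid cycle oxidises that acetyl group and feeds the respiratory chain. Several steps are run by alternative isoenzymes encoded by different genes. In brain, Hk1, Pfkm and Pfkp, Aldoc, Eno2, Ldhb and Slc2a3 are known as common neural forms, with Aldoc known above all from astrocytes and Eno2 from neurons. Hk2, Ldha, Slc16a3 and Slc2a1 are known as genes of glycolytic or hypoxic cells, and Slc2a1 also as the transporter of brain endothelium and glia.

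Library depth ran from 10490535 to 19753419 estimated counts in footprints and from 14762047 to 44786643 in RNA. Values per library are given below in the order WT 1, WT 2, DKO 1 and DKO 2, in CPM, counts scaled to a common library size, with trimmed mean of M values (TMM) factors for library composition. Eif4g1 had 299.8, 263, 154 and 288 CPM in footprints and 288, 279.9, 125 and 305 CPM in RNA, so that only replicate 1 labelled DKO lay below the WT libraries. For Eif4g3 the values were 169, 153, 164 and 172 CPM in footprints and 120.1, 128, 103 and 138 CPM in RNA, and of the libraries labelled DKO only the RNA of replicate 1 lay below both WT values. Sums over whole genes go against the label for Eif4g1 in replicate 2 and for Eif4g3 in 3 of 4 libraries. The labels do not say which part of either gene was altered, so the sums need not report on it, and every direction below is between libraries labelled DKO and WT. The culture of WT replicate 2 stood apart in both assays. Its score on the first principal component of the footprints was 34.7, against -14.0 to -9.09 in the other 3 libraries. That culture is coded WT in the labels, whereas the codes of WT replicate 1 and of both cultures labelled DKO begin with c. What these codes stand for is not stated, and the part of this difference in the values below was not tested. Of the neurons' labelled cortical glutamatergic markers, Slc17a6 was at 166, 74.3, 234 and 194 CPM in footprints, while Slc17a7 stayed at 0.0563 to 0.218 CPM there and Tbr1 at 0.0563 to 0.312 CPM. Markers of other cells were present. The summed level of 6 progenitor markers was 4370 and 4716 CPM in WT footprints against 3485 and 3870 CPM in those labelled DKO, and 2387 and 2564 against 2075 and 2040 CPM in RNA. The summed footprint level of 9 astrocyte markers was 1348 and 1581 CPM in WT and 1359 and 1373 CPM in libraries labelled DKO, that of 7 tested oligodendrocyte markers 524 and 711 against 405 and 446 CPM, and that of 7 proliferation markers 474 and 576 against 420.4 and 413 CPM. For 8 fibroblast and endothelial markers the sums were 325 and 832 against 545 and 177 CPM, with the highest in WT 2. For 5 pluripotency markers they were 28.28 and 47.45 against 23.21 and 26.36 CPM, and 22.24 and 34.22 against 19.31 and 21.97 CPM in RNA. Of these, Dppa5a had 0.732, 11.63, 0 and 0.414 CPM in footprints and Pou5f1 0.0563, 3.924, 0 and 0.177 CPM. Esrrb, the only one that passed the filter on low counts, had similar footprint levels in WT 1 and WT 2. No oligodendrocyte marker was called between genotypes in RNA by edgeR, where 5 of 7 had an unadjusted p under 0.05, and DESeq2 called 2 of 7. The part of these cells in the values below was not tested. In bulk cultures such as these, fewer cells of a type and less RNA per cell cannot be told apart.

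To set genes side by side, CPM were divided by the length of the main isoform, the coding length for footprints and the transcript length for RNA, and are given as mean ± SD over the 4 libraries of an assay. Gapdh, which oxidises glyceraldehyde 3-phosphate, had the most footprints of all members at 2084 ± 119.8 CPM per coding kb and ranked 64th among genes with lengths. Cytosolic malate dehydrogenase Mdh1 followed at 1223 ± 79.2, then the aldolases Aldoa at 941 ± 54.5 and Aldoc at 905 ± 72.9, and the phosphoglycerate mutase Pgam1 at 743 ± 59.8 CPM per coding kb. Gapdh and Mdh1 lay apart from their neighbours in this order, whereas the intervals of the 2 aldolases overlapped. Pyruvate kinase Pkm at 591 ± 21.8, Ldhb at 569 ± 23.2, mitochondrial Mdh2 at 529.9 ± 33.8, the pyruvate dehydrogenase subunit Pdha1 at 496 ± 68.6, the triose phosphate isomerase Tpi1 at 491 ± 25.1, citrate synthase Cs at 432 ± 15.4 and phosphoglycerate kinase Pgk1 at 421 ± 16.6 CPM per coding kb came next, and most neighbours within this run differed by less than the sum of their SDs. At the other end were Hk2 at 4.22 ± 0.452, the lactate exporter Slc16a3 at 8.61 ± 1.52, the glucose transporter Slc2a1 at 19.4 ± 4.34 and the monocarboxylate transporter Slc16a7 at 22.1 ± 2.86 CPM per coding kb. The median footprint level was 290.6 CPM per coding kb over the glycolytic genes, 159.6 over those of the citric acid cycle, 136.0 at the pyruvate dehydrogenase step and 22.1 for transporters, against 21.6 over 12671 genes with lengths. RNA was also highest for Gapdh, at 389 ± 11.4 CPM per kb of transcript, with Aldoa at 309.8 ± 13.9, Aldoc at 260.1 ± 35.6 and Mdh1 at 256 ± 27.9. The median RNA level was 134.6 CPM per kb for glycolysis and 64.0 for the citric acid cycle, against 11.2 over all genes with lengths. Summed over the 17 genes, glycolysis took 8937 to 9652 CPM of footprints and 4200 to 4578 CPM of RNA, where the 11 citric acid cycle genes took 3805 to 4274 and 1753 to 2010 CPM. WT 2 had the lowest footprint sum of both pathways.

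**Figure D1:**
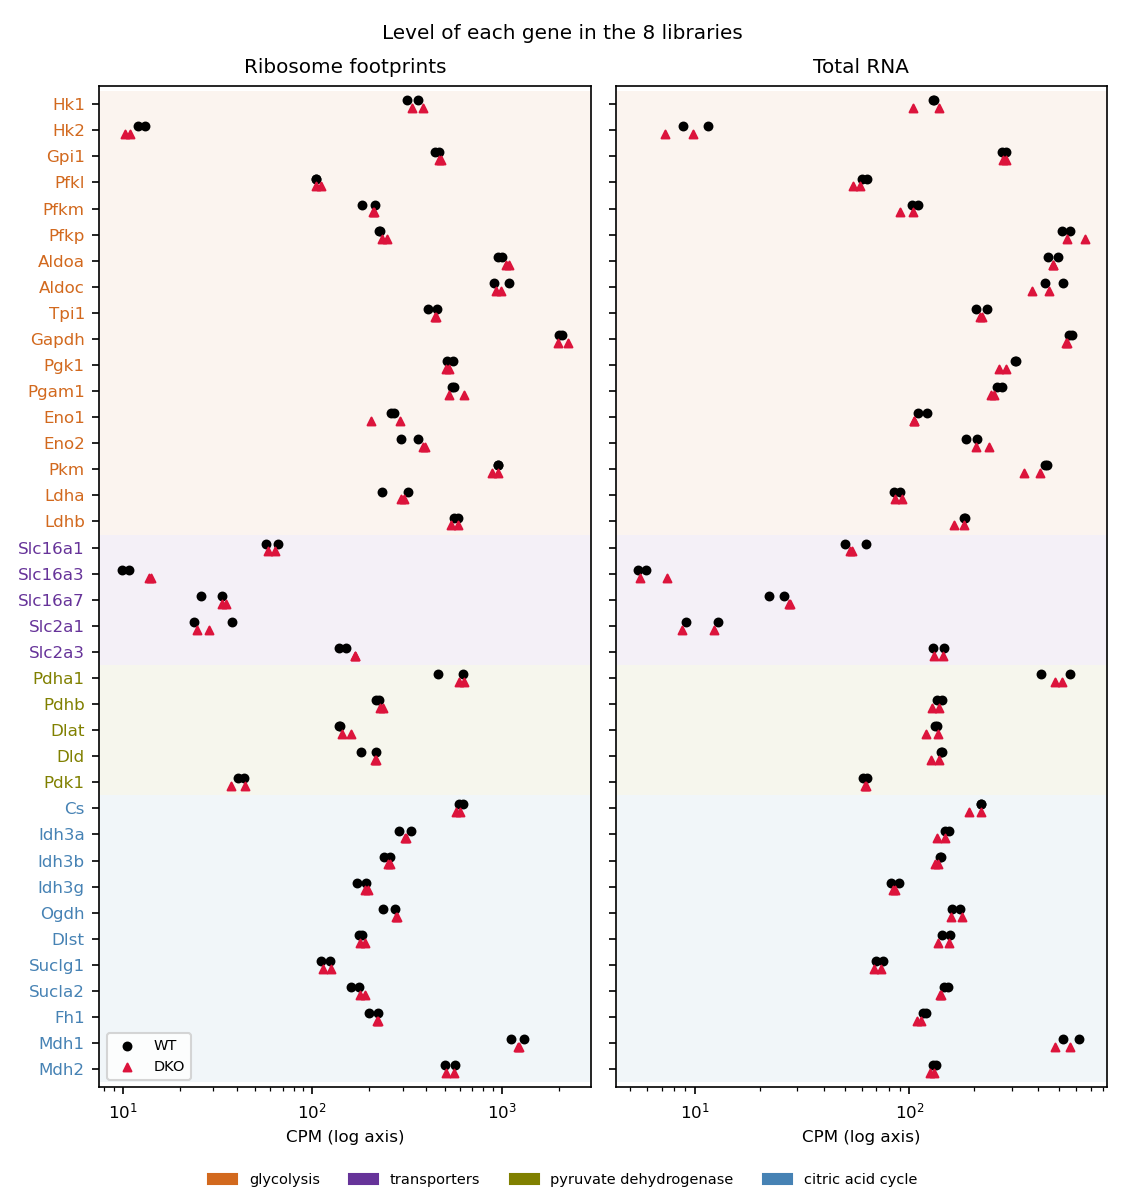
Level of each of the 38 genes in CPM on a log axis, footprints on the left and RNA on the right; circles are the 2 WT libraries and triangles the 2 libraries labelled DKO, and shading marks the pathway. Within a gene the 4 points of an assay lie close together, whereas genes span from about the level of Hk2 to that of Gapdh, and Slc2a1 and Ldha have a WT 2 footprint point away from the others.

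Pyruvate kinase M was covered by 1 isoform of the table only. Pkm makes 2 products by mutually exclusive exons, M1, the form of adult muscle and brain, and M2, known from embryonic and proliferating cells. The exons of GENCODE M21 (GRCm38) are shown because the table lists only the transcript with the M2-type exon, so that no isoform count separates the forms. Each is 167 nt long and is exon 9 of 11 in its own transcript, and capitals mark the 64 positions at which they differ, with 103 identical.

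M1-type exon (chr9:59675029-59675195, + strand): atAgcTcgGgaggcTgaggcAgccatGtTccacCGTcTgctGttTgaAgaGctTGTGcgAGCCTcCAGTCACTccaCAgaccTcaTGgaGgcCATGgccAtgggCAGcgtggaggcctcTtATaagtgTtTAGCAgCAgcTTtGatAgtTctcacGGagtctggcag

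M2-type exon (chr9:59675568-59675734, + strand): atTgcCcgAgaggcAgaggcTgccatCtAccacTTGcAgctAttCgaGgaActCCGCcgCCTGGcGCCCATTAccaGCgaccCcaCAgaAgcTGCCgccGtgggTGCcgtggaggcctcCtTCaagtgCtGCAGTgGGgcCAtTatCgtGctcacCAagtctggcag

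The sum for Pkm (chr9:59656368-59679375) was 963, 957, 954 and 889 CPM in footprints and 439, 428, 343 and 405 CPM in RNA. Both libraries labelled DKO lay below both WT libraries in each assay, by -0.06 ± 0.12 (SE) on the log2 scale in footprints and -0.21 ± 0.12 in RNA, with edgeR adjusted p = 0.953 and 0.851. The balance of M1 and M2 was not analysed here.

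The second gene whose counts depend on sequence was Eno1, the widely expressed enolase. Its retrocopy Eno1b is listed as a gene of its own, and 87.9% of the 28-base words of the Eno1 coding sequence, about the length of a footprint, also occur in Eno1b. Their coding sequences are both 1302 nt long and differ at 8 positions, a 99.39% identity. Coding positions 661 to 750 of GENCODE M21 transcripts, counted from the A of the start codon, show how little there is to tell them apart, with capitals at the 3 differences in this stretch.

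Eno1 coding 661-750: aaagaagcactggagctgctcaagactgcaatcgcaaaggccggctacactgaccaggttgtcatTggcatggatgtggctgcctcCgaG

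Eno1b coding 661-750: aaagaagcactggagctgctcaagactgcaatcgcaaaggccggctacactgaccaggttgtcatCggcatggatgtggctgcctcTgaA

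Eno1 had 260.1, 269, 291 and 206 CPM in footprints and Eno1b 491, 490.1, 446 and 502 CPM, so that the copy took more footprints than its parent in every library. In RNA, Eno1 had 109, 120.5, 105 and 105 and Eno1b 109, 129.8, 92.0 and 114 CPM, near equal in each library. Footprints of Eno1 were lower in DKO 2 than in any other library, whereas those of Eno1b were not. Values of Eno1 alone are uncertain for that reason, and the enolase shares, the Eno1 to Eno2 ratio and the change between genotypes are also given with Eno1b added. Other members share coding words with genes of GENCODE M21 that are not in the table, mostly retrocopies. The share was 100% for Gapdh, Pgk1 and Pgam1, 83.1% for Pkm, 67.3% for Ldha, 62.6% for Pdhb, 57.9% for Ldhb, 53.7% for Aldoa and 53.6% for Gpi1, and how reads from such copies were placed was not tested.

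Hexokinase was almost wholly Hk1, the form bound to mitochondria in brain. Hk1 had 361, 315, 384 and 336 CPM in footprints and 129, 130.5, 104 and 137 CPM in RNA. For Hk2, the form induced by insulin and hypoxia, the values were 12.1, 13.1, 10.9 and 10.3 CPM in footprints and 8.76, 11.5, 7.27 and 9.76 CPM in RNA. Per kb, Hk1 made up 96.0% to 97.2% of the hexokinase footprints and 93.6% to 95.0% of the RNA. The log2 ratio of Hk2 to Hk1 in counts was -4.90, -4.59, -5.14 and -5.03 in footprints, below the -3.88, -3.51, -3.84 and -3.82 in RNA in all libraries. For each of 10 pairs of isoenzymes, the ratio in the 4 footprint libraries was compared with that in the 4 RNA libraries by a two-sided exact permutation test, in which 0.0286 is the smallest p possible, adjusted over the 10 pairs. The Hk2 to Hk1 ratio differed by -1.15 on the log2 scale, footprints minus RNA, with exact p = 0.0286 and adjusted p = 0.0571, and no pair passed 0.05 after adjustment. Footprints and RNA of a culture are not independent, and the test ignores that.

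Phosphofructokinase, the step that commits glucose to glycolysis, drew on 3 genes. Pfkm, the muscle form, had 215, 183, 213 and 208 CPM in footprints and 109.7, 103, 90.6 and 104 CPM in RNA. Pfkl, the liver form, had 105, 105, 111 and 105 and 60.2, 63.5, 54.8 and 58.7 CPM. Pfkp (chr13:6579768-6648777), the platelet form, had 228, 224, 248 and 234 CPM in footprints but 564, 517, 657 and 544 CPM in RNA, so that its RNA exceeded its footprints in all 4 cultures. Pfkp thus took 41.5% to 43.7% of the family's footprints per kb and 78.5% to 84.2% of its RNA, with the length of its main coding isoform used for all its counts. Most of that RNA was assigned to isoforms annotated as retained introns, which do not encode the full enzyme. The longest of them, Pfkp-212 with 8681 nt, took 50.8% to 54.6% of the Pfkp counts in RNA and 8.05% to 16.6% in footprints, and the coding Pfkp-201 took 21.1% to 25.5% and 66.3% to 74.3%. With retained introns left out, an alternative chosen after seeing the data, Pfkp held 36.4% to 40.8% of the family's footprints and 52.0% to 63.5% of its RNA. The log2 ratio of Pfkp to Pfkm differed between footprints and RNA by -2.29 (exact p = 0.0286, adjusted p = 0.0571), and by -0.89 without retained introns, while Pfkl to Pfkm differed by -0.16 (exact p = 0.0857, adjusted p = 0.122).

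The aldolases were nearly even. Aldoa had 1005, 956, 1091 and 1060 CPM in footprints and 494, 442, 466 and 470 CPM in RNA, and Aldoc had 1094, 916, 992 and 939 and 519, 431, 372 and 447 CPM. Aldoa made up 47.8% to 53.0% of the aldolase footprints per kb and 51.7% to 58.5% of the RNA. The ratio of Aldoc to Aldoa did not shift between assays beyond the spread, at 0.03 on the log2 scale (exact p = 0.829, adjusted p = 0.921), and was lower in both libraries labelled DKO than in both WT libraries in each assay, by -0.19 in footprints (pooled SD 0.09) and -0.21 in RNA (pooled SD 0.14). A permutation test of 2 libraries against 2 cannot go below p = 0.333, and no other test of these genotype differences was made. The astrocyte marker sum in RNA was 860.2 and 1128 CPM in WT and 802 and 895 CPM in libraries labelled DKO. Its part in the Aldoc values was not tested.

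Enolase counts were split between Eno1 and the neuronal Eno2, which had 360.3, 294, 396 and 386 CPM in footprints and 207, 184, 205 and 234 CPM in RNA. Eno2 took 52.2% to 65.3% of the family's footprints per kb when Eno1b was counted apart, but 27.9% to 35.3% with Eno1b added to Eno1. With Eno1b apart and retained introns left out, Eno2 took 32.0% to 42.5%. Which enolase led in footprints thus depended on either choice. The Eno1 to Eno2 ratio differed by 0.42 between footprints and RNA (exact p = 0.0571, adjusted p = 0.0952) by 0.96 with Eno1b added, by 1.18 with retained introns left out and by 2.35 with protein-coding isoforms only. Of the Eno2 footprints, 68.0% to 69.8% were assigned to isoforms annotated as retained introns, against 33.8% to 37.1% of the RNA. Lactate dehydrogenase was mainly Ldhb, the heart form, at 591, 558, 588 and 543 CPM in footprints and 179.8, 182, 161 and 179 CPM in RNA. Ldha, the muscle form, had 322, 235, 294 and 307 CPM in footprints, with WT 2 lowest, and 90.4, 84.6, 92.1 and 85.3 CPM in RNA. Ldhb accounted for 63.8% to 70.3% of the footprints per kb and 68.0% to 72.4% of the RNA, and the Ldha to Ldhb ratio differed by 0.01 between assays (exact p = 1, adjusted p = 1).

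Among the transporters, Slc2a3, the high-affinity glucose carrier of neurons, had 152, 139, 168 and 168 CPM in footprints and 144, 129, 129.7 and 144 CPM in RNA. Slc2a1 had 23.7, 37.7, 24.6 and 28.5 CPM in footprints and 9.07, 12.8, 8.68 and 12.3 CPM in RNA. WT 2 had the highest value in both assays, with the RNA of DKO 2 close to it. The fibroblast and endothelial sum in RNA was 503 CPM in WT 2 and 91.3 CPM in DKO 2. Its part in the Slc2a1 values was not tested. Slc2a3 made up 78.6% to 87.2% of the footprints per kb of these 2 glucose carriers and 89.2% to 92.9% of their RNA. The ratio of Slc2a1 to Slc2a3 differed by 1.22 between footprints and RNA (exact p = 0.0286, adjusted p = 0.0571). Slc16a1, the common monocarboxylate carrier, had 57.4, 66.4, 63.4 and 58.7 CPM in footprints and 50.3, 62.4, 53.1 and 54.2 CPM in RNA. Slc16a7, the high-affinity neuronal form, had 33.6, 25.9, 33.3 and 35.3 and 25.9, 22.0, 27.4 and 27.8 CPM. Slc16a3 was the lowest, at 10.8, 9.88, 13.7 and 14.2 CPM in footprints and 5.43, 5.93, 7.43 and 5.55 CPM in RNA. Slc16a1 led with 53.6% to 64.3% of their footprints per kb, and in RNA Slc16a1 and Slc16a7 were close, at 43.9% to 53.4% and 37.2% to 46.0%. The counts ratio of Slc16a3 to Slc16a1 was higher in footprints by 0.83 (exact p = 0.0286, adjusted p = 0.0571), and that of Slc16a1 to Slc16a7 differed by -0.15 (exact p = 0.429, adjusted p = 0.536). Counts do not allow for length, and the transcript of Slc16a1 is 2.99 times its coding part, against 1.69 for Slc16a3 and 1.54 for Slc16a7. Per kb and relative to the median gene, log2 footprints over RNA were 0.68 for Slc16a1, 0.70 for Slc16a3 and -0.12 for Slc16a7. The shift of Slc16a3 to Slc16a1 was thus not seen per kb. Of the malate dehydrogenases, the cytosolic Mdh1 had 1315, 1122, 1226 and 1239 CPM in footprints and 616, 519, 478 and 562 CPM in RNA, and Mdh2 had 570.3, 505, 511 and 563 and 128, 133, 125 and 130.2 CPM. Mdh2 took 29.2% to 31.0% of the footprints per kb and 23.3% to 27.6% of the RNA, a log2 shift of 0.88 in the counts ratio (exact p = 0.0286, adjusted p = 0.0571). These are 5 pairs at the smallest p the test can give. With protein-coding isoforms only, with retained introns left out or with Eno1 and Eno1b summed, 6 of 10 pairs passed, each at adjusted p = 0.0476 by the exact permutation test: these 5 and, in each of the 3 settings, Eno1 to Eno2. The exact p of the 5 pairs stayed at 0.0286. They passed only because Eno1 to Eno2 reached the same p, which lowers the adjusted value of all tied pairs. All 10 ratios are of counts, without allowance for length, and no pair was tested per kb. Per kb and relative to the median gene, Hk2 and Hk1 were at 0.26 and 1.06, and Pfkp and Pfkm at -2.16 and 0.25. Slc2a1 and Slc2a3 were at 1.5 and 0.56, Mdh2 and Mdh1 at 1.52 and 1.20, and Eno1 without Eno1b and Eno2 at 0.80 and 0.84. With the culture as a block, the exact sign-flip test over 4 cultures cannot go below p = 0.125, so that no pair could pass in any setting.

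**Figure D2:**
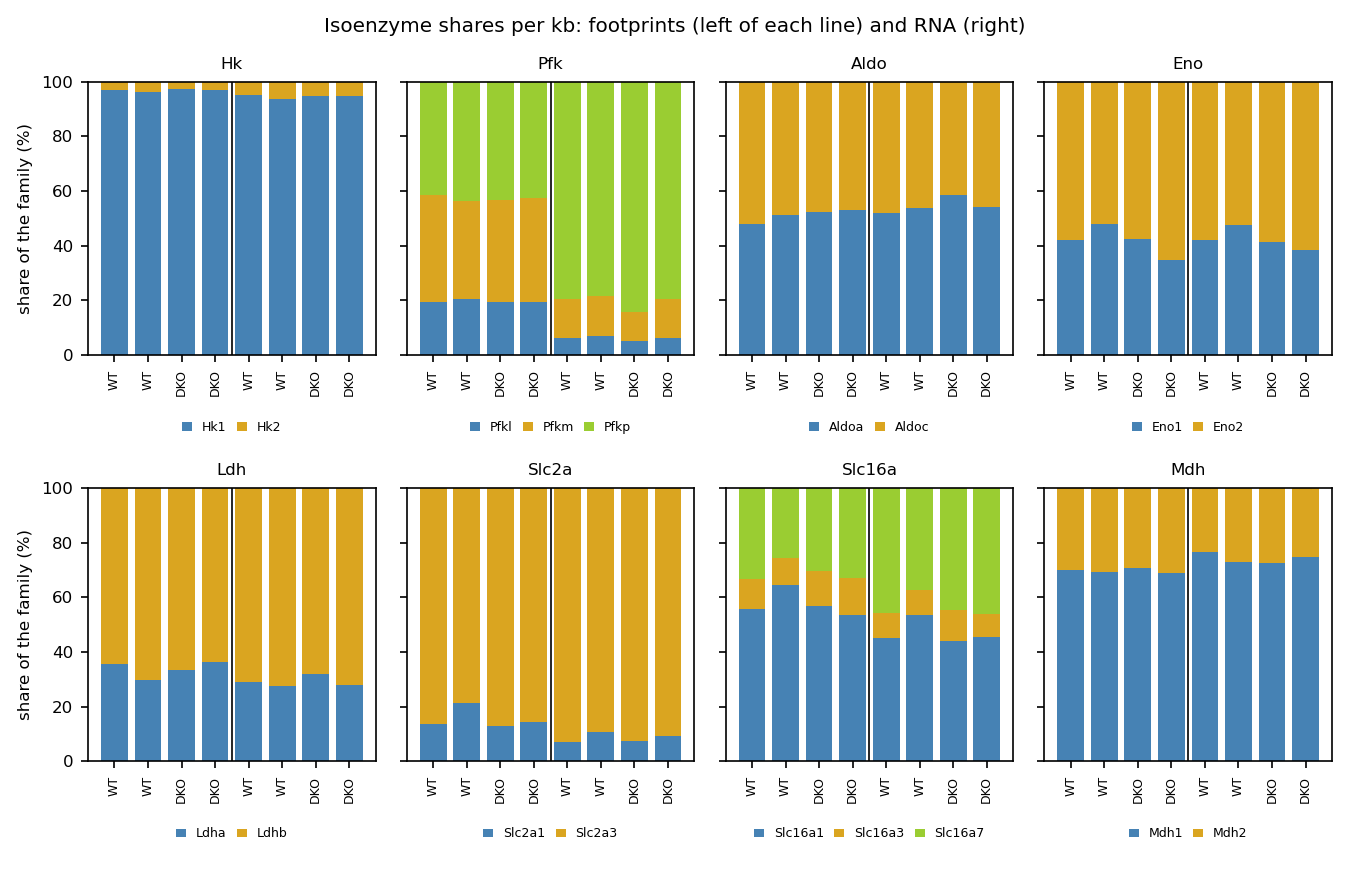
Share of each isoenzyme in its family, in percent of CPM per kb, as stacked bars for the 4 footprint libraries left of the line and the 4 RNA libraries right of it. Hk1, Ldhb and Slc2a3 lead their families in all 8 libraries. The Pfkp part is 41.5% to 43.7% of footprints but 78.5% to 84.2% of RNA, with retained introns counted. Without retained introns, which is not drawn, it is 36.4% to 40.8% and 52.0% to 63.5%.

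Most of these genes had more footprints relative to RNA than the typical gene. Counts of footprints were compared with RNA over both genotypes in 1 edgeR quasi-likelihood fit across all 12898 genes, scaled so that the typical gene is near 0, and genes with an adjusted p under 0.05 were called. Of the 38 members 32 were called higher, where 36.5% of all genes tested were, and 2 were called lower, where 38.2% of all were. The members' median was 0.90 on the log2 scale, against -0.01 over all genes tested. By pathway, 15 of 17 glycolytic genes were higher and 1 lower with a median of 1.13, all 11 citric acid cycle genes were higher with a median of 0.92, 4 of 5 transporters were higher with a median of 0.32, and at the pyruvate dehydrogenase step 2 were higher and 1 lower with a median of 0.24. The highest was Mdh2 (chr5:135778480-135790398), whose 570.3, 505, 511 and 563 CPM of footprints stood against 128, 133, 125 and 130.2 CPM of RNA, a log2 difference of 2.06 ± 0.08 (SE, adjusted p = 1.07e-09). Gapdh had 2094, 1998, 1990 and 2247 against 573, 556, 543 and 537 CPM, a difference of 1.92 ± 0.09 (adjusted p = 3.03e-09). Neither gene's footprint and RNA libraries overlapped, and the 4 footprint values of each lay above every RNA value. Ldha reached 1.72 ± 0.10 (adjusted p = 1.99e-08) and Ldhb 1.70 ± 0.08 (adjusted p = 3.13e-09). Citrate synthase Cs, the entry enzyme of the cycle, had 628, 596, 604 and 576 CPM of footprints and 216, 216, 189 and 215 CPM of RNA, 1.52 ± 0.08 apart (adjusted p = 7.17e-09). Hk1 was at 1.48 ± 0.10 (adjusted p = 6.87e-08). In the middle of the glycolytic chain, the log2 difference was 0.75 for the glucose phosphate isomerase Gpi1, 1.02 for Tpi1, 0.86 for Pgk1, 1.15 for Pgam1 and 1.22 for Pkm. Within the cycle it was 1.10, 0.88 and 1.14 for the 3 subunits of the NAD-linked isocitrate dehydrogenase, 0.69 for Ogdh and 0.31 for Dlst of the oxoglutarate dehydrogenase complex, 0.73 for the shared and 0.30 for the ATP-forming subunit of succinyl-CoA ligase, 0.92 for fumarase Fh1 and 1.17 for Mdh1. In counts, which do not allow for length, the subunits of 1 complex therefore did not share 1 value. Per kb and relative to the median gene, the 3 isocitrate dehydrogenase subunits were at 1.17, 0.31 and 0.26, Ogdh at 0.06 and Dlst at 0.28. The shared and the ATP-forming subunit of succinyl-CoA ligase were at 0.22 and -0.08. No difference between subunits was tested. Of the transporters called higher, Slc2a3 was at 0.19 ± 0.07 (adjusted p = 0.0266) and Slc16a7 at 0.32 ± 0.09 (adjusted p = 0.00872). Slc2a3 lost its call in the WT libraries (0.09, adjusted p = 0.457) and without the footprints of WT 1, DKO 1 or DKO 2 or the RNA of WT 2 or DKO 1 (0.16 to 0.21), and Slc16a7 lost it in WT and in DKO taken alone (adjusted p = 0.0525 and 0.0530). Sucla2 lost its call in WT alone (0.19, adjusted p = 0.0985). Hk2 (0.32), Slc16a1 (0.16), Pdha1 (0.24) and Dlat (0.16), a further pyruvate dehydrogenase subunit, missed the threshold. With the culture as a replicate block, which pairs footprints and RNA of a culture, these 4 passed, at edgeR adjusted p = 0.00899, 0.0281, 0.00575 and 0.0340, and 36 members were called higher.

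The 2 members called lower were Pfkp at -1.29 ± 0.08 (adjusted p = 5.58e-08) and Pdk1, a kinase that switches pyruvate dehydrogenase off, at -0.59 ± 0.07 (adjusted p = 1.15e-05). Both depended on how counts fell among isoforms. Without retained introns the Pfkp difference turned to 0.12 (adjusted p = 0.181), and with protein-coding isoforms only it was 0.13 (adjusted p = 0.174). Pdk1 (chr2:71873224-71903858) had 40.6, 43.6, 44.1 and 37.1 CPM in footprints and 63.2, 61.0, 61.8 and 62.7 CPM in RNA. Its coding isoform Pdk1-201, with 5185 nt, took 87.4% to 93.8% of its RNA counts but 0.416% to 1.27% of its footprints, which went to the processed transcripts Pdk1-206 and Pdk1-208, so that with coding isoforms only Pdk1 could not be tested. The same choice ended or turned other values. Eno2 was higher by 0.79 ± 0.09 with all isoforms, -0.26 with retained introns left out (adjusted p = 0.0214) and -1.39 with protein-coding isoforms only (adjusted p = 0.000111). Dlat was at -0.08 (adjusted p = 0.377) and -0.30 (adjusted p = 0.00182), and Pdha1 at -0.06 (adjusted p = 0.640) and -0.05 (adjusted p = 0.719). Sums over all isoforms are the values read below, since footprints often match several isoforms of a gene.

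Counts do not allow for length: RNA reads come from the whole transcript and footprints mostly from the coding part, so genes with long untranslated regions have fewer footprints per RNA read. Divided by coding and transcript length and set relative to the median of 12671 genes, 35 of 38 members were above 0, with a median of 0.55 on the log2 scale. Values of single genes over the whole table had quartiles of -0.65 and 0.67. The median was 0.77 for glycolysis, 0.68 for transporters, 0.31 for the citric acid cycle and 0.29 for the pyruvate dehydrogenase step. Glycolysis had the highest median in counts and per kb, and no test was made between pathways. Cs at 1.54, Mdh2 at 1.52, Slc2a1 at 1.5, Gapdh at 1.37, Ldha at 1.33, Pgam1 at 1.32, Mdh1 at 1.20 and Idh3a at 1.17 led. Pdk1, whose transcript is 3.98 times as long as its coding part, moved to 0.35, above the median gene. Only Pfkp (-2.16), Slc16a7 (-0.12) and Sucla2 (-0.08) lay below 0. The Pfkp value divides the RNA of all its isoforms by the 2679 nt of Pfkp-201. Of that RNA, 50.8% to 54.6% was assigned to Pfkp-212, a retained-intron isoform of 8681 nt. The per-kb RNA of Pfkp is therefore overstated as far as those counts come from the longer isoform. In counts, the Pfkp difference was 0.12 without retained introns.

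**Figure D3:**
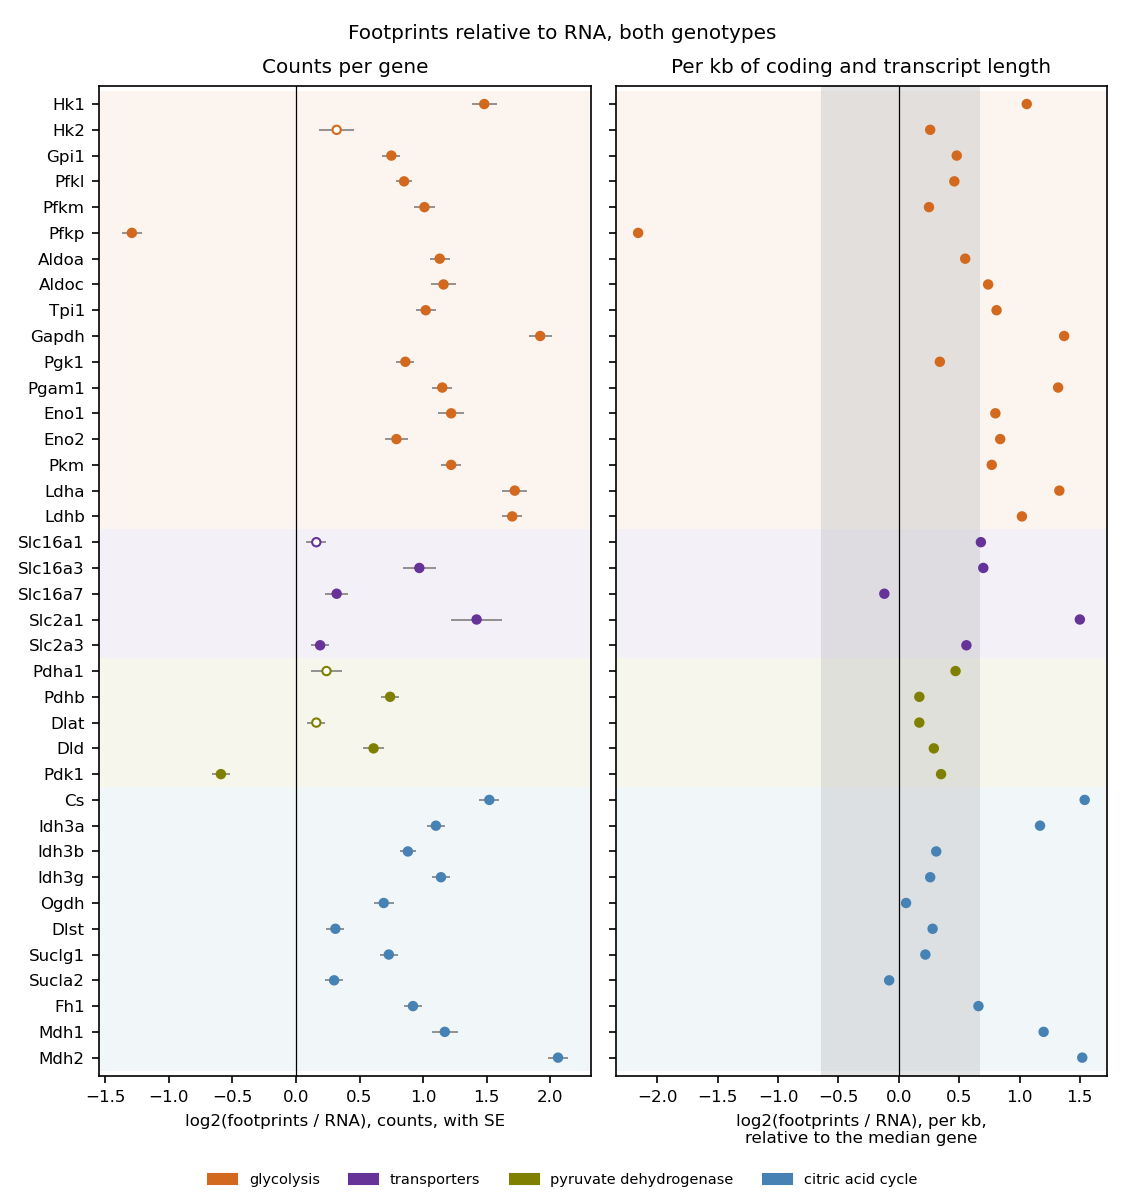
Log2 difference of footprints and RNA for each gene over both genotypes, on the left in counts with the SE (filled points called at adjusted p under 0.05, open points not) and on the right per kb relative to the median gene, with the quartile range of all genes in grey. In counts 32 points are called above 0 and Pfkp and Pdk1 below it, and per kb Pfkp, Slc16a7 and Sucla2 lie below 0.

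The bases around the start codon are printed for the 8 members with the highest and lowest footprint to RNA difference, since initiation is the step at which Eif4g1 and Eif4g3 act. Each run holds 10 bases before the start codon, the codon in capitals and 4 bases after it, in the main isoform of GENCODE M21.

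Mdh2 start: cgccctagccATGctgt

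Gapdh start: cgtagacaaaATGgtga

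Ldha start: aaagtccaagATGgcaa

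Ldhb start: tctggacaagATGgcaa

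Cs start: ttcgcccgccATGgctc

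Hk1 start: caccgtcaacATGatcg

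Pfkp start: cctcctcatcATGagtg

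Pdk1 start: ggggctcggtATGaggc

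A purine stood at position -3, the base known to matter most for start recognition, in all 8, as in 36 of 38 members (94.7%) and 10665 of 12349 tested genes with an annotated start (86.4%). G at position +4 was found in 16 members (42.1%) against 52.3% of those genes. These 2 bases did not separate Pfkp and Pdk1 from the others. The main 5' untranslated region had a median of 148.5 nt over the members, 154 nt in glycolysis and 130 nt in the citric acid cycle, against 171 nt over genes with lengths. In the promoters, the letters ACGTG, the core of the site bound by hypoxia-inducible factors and a part of the CACGTG box of other factors, were searched on both strands in the 300-base windows at gene starts of the RefSeq table for GRCm38.p6. They occurred in 10 of 17 glycolytic promoters (58.8%), 3 of 3 transporter, 1 of 5 pyruvate dehydrogenase (20%) and 3 of 10 citric acid cycle promoters (30%) that were in the table, 17 of 35 in all (48.6%), against 21.8% of 27025 genes. Those 27025 genes were taken whether or not they passed the filter on low counts, which all members did. A gene counted if any of its windows held a match. A match is only a run of letters.

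None of the 38 genes was called between genotypes in footprints by edgeR, which called 0.00775% of all genes tested (1 of 12898), nor by DESeq2, which called 5. Of the members, 27 had a positive log2 change, DKO over WT as labelled, with a median of 0.06 against 0.00 over all genes. In 11 of them both libraries labelled DKO lay above both WT libraries, as in 16.3% of all genes, and in 2, Hk2 and Pkm, below, as in 16.2%. The largest change was that of Slc16a3, 0.44 ± 0.18 (SE, edgeR adjusted p = 0.849), the only member with an unadjusted p under 0.05 in footprints. Its values of 10.8, 9.88, 13.7 and 14.2 CPM did not overlap between genotypes. Slc2a3 differed by 0.21 ± 0.10 (adjusted p = 0.849) and Eno2 by 0.26 ± 0.12 (adjusted p = 0.849), both again with groups that did not overlap. With 1 library left out, Eno2 ran from 0.12 without WT 2 to 0.42 without WT 1, and Slc2a3 from 0.15 to 0.29 without the same libraries. On the lower side were Hk2 at -0.25 ± 0.19, Slc2a1 at -0.20 ± 0.27 and Eno1 at -0.09 ± 0.14 (adjusted p = 0.867, 0.931 and 0.938). The last 2 rested on 1 library each: without WT 2, Slc2a1 turned to 0.17, and without DKO 2, Eno1 turned to 0.14. With Eno1b added to Eno1 the change was -0.06 (edgeR adjusted p = 0.951). The ratio of Hk2 to Hk1 was lower in both footprint libraries labelled DKO by -0.34 (pooled SD 0.16). That of Slc16a3 to Slc16a1 was higher by 0.45 (pooled SD 0.18), with no test made. Of the 10 pairs, only these and Aldoc to Aldoa had footprint groups that did not overlap. In RNA they were Aldoc to Aldoa, Pfkp to Pfkm (0.28, pooled SD 0.23) and Eno1 to Eno2 (-0.30, pooled SD 0.18). A permutation test gives such a split of 2 libraries against 2 a p of 0.333 at best.

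In RNA most members had values of the other sign, again without a call. No member was called by edgeR, which called 0.0155% of all genes (2 of 12898), nor by DESeq2, which called 13, and none had an unadjusted p under 0.05. The log2 change was positive in 11 of 38, with a median of -0.07 against 0.00 over all genes. Both libraries labelled DKO were below both WT libraries in 12 members, 7 of them glycolytic and 4 of the cycle, as in 18.9% of all genes, and above in 1, Slc16a7, as in 19.6%. Pgk1 had 313, 311, 263 and 281 CPM, a change of -0.20 ± 0.10 (adjusted p = 0.851), Pkm -0.21 ± 0.12 (adjusted p = 0.851) and Aldoc -0.21 ± 0.14 (adjusted p = 0.862). With positive values, Slc16a7 was at 0.21 ± 0.13, Eno2 at 0.17 ± 0.12 and Pfkp at 0.15 ± 0.12 (adjusted p = 0.855, 0.878 and 0.889). With 1 library left out, Pgk1 ran from -0.21 to -0.14, Pkm from -0.31 to -0.09, Aldoc from -0.34 to -0.03, Slc16a7 from 0.09 to 0.36, Eno2 from 0.09 to 0.30 and Pfkp from 0.02 to 0.31. The value nearest 0 was that without the RNA of DKO 1 for Pgk1, Pkm and Pfkp, of WT 1 for Aldoc and of WT 2 for Slc16a7 and Eno2. Changes within the citric acid cycle ran from -0.13 to 0.00 in RNA and from -0.05 to 0.13 in footprints, against SEs of 0.09 to 0.14.

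Translational efficiency, the change of footprints relative to that of RNA in the same model, was positive in 34 of 38 members, with a median of 0.11 on the log2 scale against 0.01 over all genes, of which 53.1% were positive. No member was called by edgeR or DESeq2, while edgeR called 0% and DESeq2 1 of all genes, and none had an unadjusted p under 0.05, where 110 genes had. The footprint to RNA ratio of both cultures labelled DKO exceeded that of both WT cultures in 16 members, as in 13.8% of all genes, and lay below in 0, where 13.2% of all genes did. The 16 comprised 7 glycolytic genes, Slc2a3, 3 of the pyruvate dehydrogenase step and 5 of the cycle. The median was 0.12 for glycolysis, with 16 of 17 positive, and 0.10 for the cycle, with 11 of 11 positive. The smallest p-values belonged to Sucla2 at 0.22 ± 0.13, Slc2a3 at 0.21 ± 0.14 and Pfkm at 0.22 ± 0.15, with edgeR adjusted p = 1 for each, and ran from 0.14 to 0.30, 0.08 to 0.29 and 0.11 to 0.35 with 1 library left out. Negative values were those of Pdk1 at -0.06 ± 0.14, Pfkp at -0.06 ± 0.17 and Slc2a1 at -0.10 ± 0.39, also at adjusted p = 1, with Slc16a7 at -0.00, and each of the first 3 turned positive without 1 library: Pdk1 to 0.07 without the footprints of DKO 2, Pfkp to 0.06 without the RNA of DKO 1, and Slc2a1 to 0.27 without the footprints of WT 2. Leaving out 1 library moved these medians by over 1.5 times. Without the footprints of WT 1 the medians were 0.18 for glycolysis and 0.20 for the cycle, and without the RNA of DKO 1 they were 0.04 and 0.02. The footprint and RNA changes of a gene enter the same ratio, so that these are not 3 separate lines of values.

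**Figure D4:**
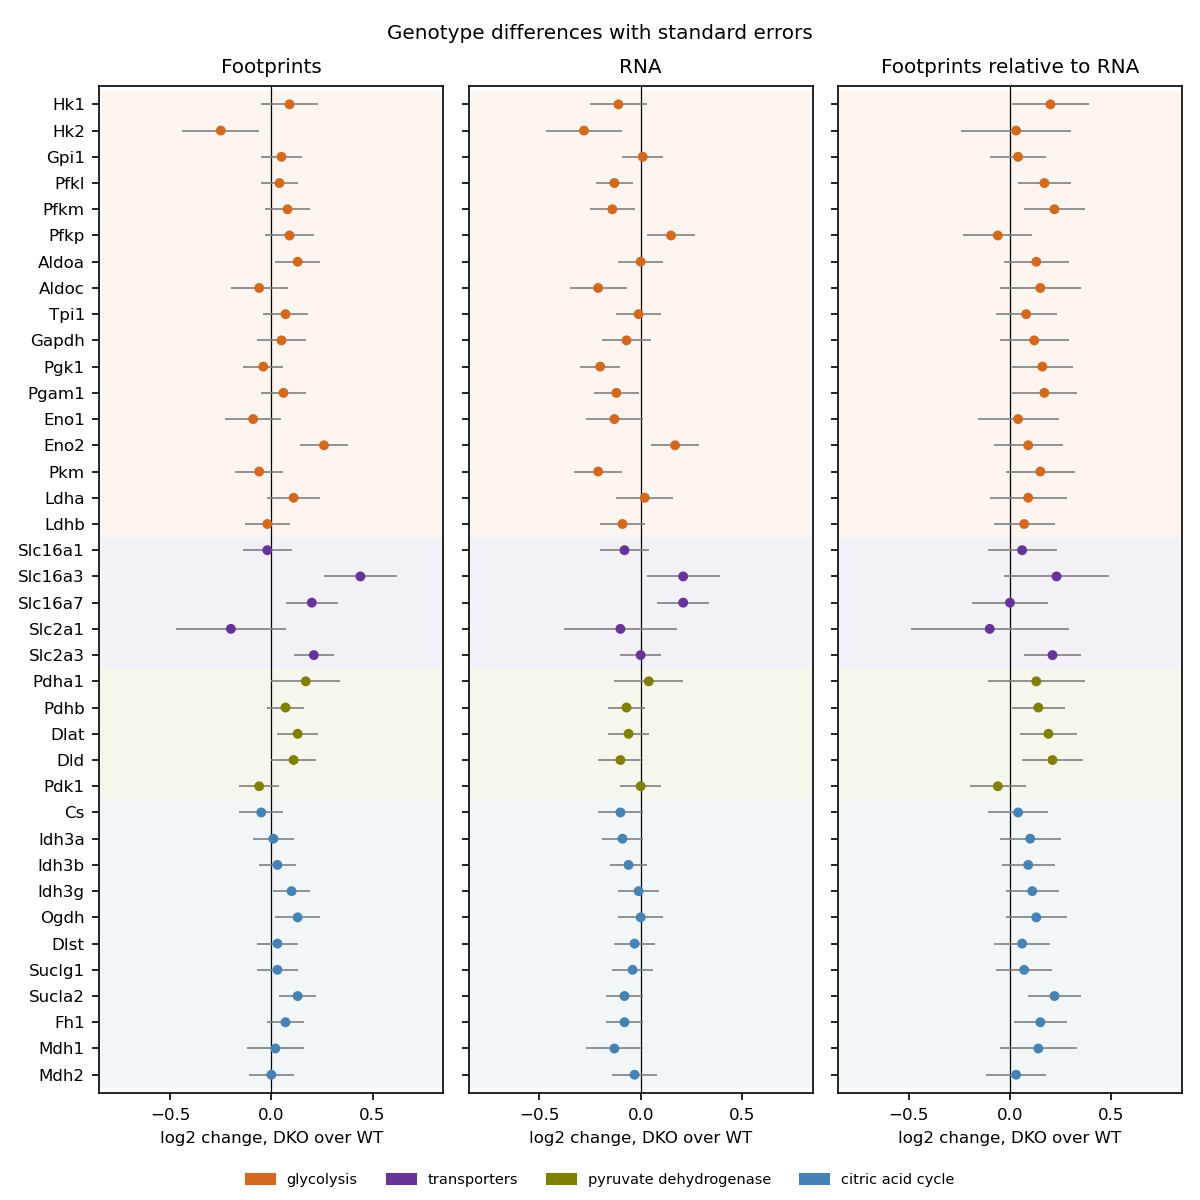
Log2 change of libraries labelled DKO over WT for each gene in footprints, RNA and footprints relative to RNA, with bars for the SE of the edgeR fit; colours mark the pathway. No gene is called in any panel; 27 footprint points, 11 RNA points and 34 points of the ratio lie above 0.

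The other genes of these pathways were read from lists of 26 further glycolytic genes, of which 17 were tested, and of 34 genes around pyruvate and the cycle, of which 32 were tested. Footprints relative to RNA were higher in 7 and lower in 4 of the 17, with a median of 0.10, and higher in 21 and lower in 3 of the 32, with a median of 0.43, against the 36.5% and 38.2% of all genes. Whether the first list differed from the 17 core enzymes was not tested. Pdk2, a sister kinase of Pdk1, was at 2.55 ± 0.09 (adjusted p = 6.73e-10), with 36.5, 41.7, 34.5 and 34.1 CPM in footprints and 6.13, 6.75, 5.96 and 6.19 CPM in RNA. The aspartate aminotransferase Got1 was at 1.34 ± 0.08 and the cytosolic isocitrate dehydrogenase Idh1 at 1.13 ± 0.10 (adjusted p = 2.03e-08 and 7.48e-07). Muscle enolase Eno3 was at -1.28 ± 0.14, the sperm form Gapdhs at -0.95 ± 0.21 and the fructose bisphosphate regulator Pfkfb2 at -0.80 ± 0.07 (adjusted p = 5.32e-06, 0.00162 and 4.59e-07). Between genotypes 0 of these 49 genes were called in footprints, RNA or translational efficiency with edgeR or DESeq2, and 1, 4 and 0 had an unadjusted edgeR p under 0.05. Pyruvate carboxylase Pcx, which refills the cycle and is known from astrocytes, had the smallest p of them in RNA, with 22.8, 27.1, 14.2 and 19.5 CPM and a change of -0.59 ± 0.16 (edgeR adjusted p = 0.851), beside 25.1, 29.7, 24.0 and 25.1 CPM in footprints. Aco1, the cytosolic aconitase, was at -0.24 ± 0.10 in RNA and -0.20 ± 0.10 in footprints (adjusted p = 0.851 and 0.849). In footprints, the mitochondrial PEP carboxykinase Pck2 was at 0.41 ± 0.20 and the malate carrier Slc25a11 at 0.15 ± 0.11, with Suclg2, the GTP-forming alternative to Sucla2, at -0.26 ± 0.12 (adjusted p = 0.849, 0.861 and 0.849).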

How the data were processed

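Ribosome footprints (ARTseq kit, per the labels' protocols) and total RNA were measured in 8 libraries. The tools were kallisto, Bowtie, Trimmomatic and FastQC, per the submitters' processing notes, which give no version, build, transcript set or strand setting. The authors deposited 1 table of estimated counts per transcript, all whole numbers. kallisto divides reads among isoforms and similar genes, so near-identical copies are uncertain. Of 60528 transcripts, 60444 (99.86%) matched GENCODE M21 (GRCm38) and were summed to 18301 genes, and the other 84 held 0.076% to 0.151% of a library's counts. Isoforms annotated as retained introns took 6.95% to 7.22% of footprint and 4.62% to 4.91% of RNA counts and were kept. Of the 38 members 35 had a promoter in the RefSeq table. The libraries were fitted together with edgeR 4.0.16 (R 4.3.3, limma 3.58.1), with quasi-likelihood, 4 group means, TMM scaling, robust dispersions and filterByExpr in both assays (minimum count 10), leaving 4 residual degrees of freedom and 5403 genes not tested. Of the log2 changes, the median SE was 0.18 for translational efficiency, 0.13 for footprints and 0.12 for RNA. Benjamini-Hochberg values under 0.05 over all genes were called. The fit was tested on simulated counts for 12898 genes. For footprints it recovered 82 of 100 genes with a 2-fold and 52 with a 1.5-fold change, for RNA 73 and 46, for translational efficiency 60 and 12, and for footprints minus RNA 92 and 70, and it called 17, 10, 6 and 13 unchanged genes. Footprint and RNA libraries of 1 genotype and number were taken as 1 culture from the culture codes in the labels, and their replicate differences correlated across genes at 0.605 in WT and 0.211 in DKO. For DKO replicate 2 the codes are spelled in more than 1 way, which leaves that match uncertain. The same number in WT and DKO shares no culture. Named genes were all members of the isoenzyme families, Pkm and, per comparison, up to 6 called members per direction or the 3 with the smallest p, with up to 3 or 2 of the other pathway genes, and further members are named as parts of their complex. The alternatives were other scaling (RLE), no filter, DESeq2 1.42.0, protein-coding isoforms only, single assays or genotypes, blocks, each library left out and, chosen after seeing the data, no retained introns, Eno1 with Eno1b, values per kb and the crossed block. The members and lists were chosen with earlier results of these data known.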

Additional observations from a re-analysis of the deposited data

How the results depend on the processing

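No member was called between genotypes under any of these settings, while the number of genes called over the whole table moved. In footprints the 1 call became 3 without the filter on low counts, 5 with DESeq2, 4 without the WT 2 culture, 13 with a crossed replicate block, and 0 to 9 when 1 library was left out (9 without the WT 1 footprints, 0 without those of WT 2 or DKO 1). In RNA the 2 calls became 6 without the filter, 13 with DESeq2, 0 without the WT 2 culture, 1 with the RNA libraries alone, 40 with the replicate number as a replicate block, 4 with the crossed block, and 0 to 7 with 1 library left out. In footprints the number block gave 1 lower call in place of the 1 higher. The difference of replicate 1 from replicate 2 in WT correlated across genes with that in DKO at -0.132 in footprints and -0.128 in RNA. Libraries of the same number thus showed no shared shift between genotypes. In translational efficiency 0 calls became 1 with DESeq2, 2 with protein-coding isoforms only, 1 without retained introns and 0 to 1 with 1 library left out; the replicate block by culture left 0 there and changed no other member's call than the 4 named for footprints against RNA. With 1 library left out, the glycolytic median ran from -0.01 to 0.09 in footprints, -0.11 to -0.03 in RNA, 0.04 to 0.18 in translational efficiency and 1.09 to 1.19 in footprints minus RNA, and that of the citric acid cycle from -0.02 to 0.13, -0.09 to 0.00, 0.02 to 0.20 and 0.88 to 0.97. Without the WT 2 culture the glycolytic footprint median was -0.01. For footprints minus RNA the glycolytic median was 1.18 without the filter, 1.03 with protein-coding isoforms only, 1.06 without retained introns, 1.07 in WT, 1.20 in DKO and 0.77 per kb, and the cycle's was 0.85 in WT, 0.99 in DKO and 0.31 per kb. Between 29 and 36 members were called higher and 2 lower in each setting, though not the same 2: they were Pdk1 and Eno2 with retained introns out, and Eno2 and Dlat with protein-coding isoforms only, where Pdk1 was not tested. The isoenzyme count of 0 became 6 with protein-coding isoforms only, without retained introns or with Eno1b added. In these settings Eno1 to Eno2 reached the smallest p, which lowered the adjusted p of the pairs tied with it. With a library left out, the permutation test as run (the smaller tail doubled) could give no pass. Directions turned with 1 library left out for Slc2a1 (-0.49 to 0.17) and Eno1 (-0.36 to 0.14) in footprints and for Pdk1 (-0.18 to 0.07), Pfkp (-0.23 to 0.06) and Slc2a1 (-0.40 to 0.27) in translational efficiency. Without the WT 2 culture Slc2a1 was at 0.17 in footprints and Pdk1 at 0.01 in translational efficiency. In footprints minus RNA, protein-coding isoforms only and no retained introns turned Pfkp (0.13 and 0.12), Eno2 (-1.39 and -0.26), Pdha1 (-0.05 and -0.06) and Dlat (-0.30 and -0.08). The cause of these moves was not tested, beyond the isoforms they drop. Of the single-gene and ratio values under other settings, 1198 kept direction and side of the threshold or stayed within the spread, 24 passed the threshold anew, 9 lost it, 17 turned and 6 moved. In the self-test, which drew its changed genes at random from all genes tested, most 1.5-fold changes in translational efficiency were missed. It kept the observed library sizes and did not vary depth. Recovery among genes as abundant as the members was not tested apart.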

Other observations

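The pentose phosphate branch, which leaves glycolysis at glucose 6-phosphate and yields NADPH and ribose, was read from 7 genes, all tested. Footprints relative to RNA were called higher in 4 and lower in 2 of them, where 36.5% and 38.2% of all genes were, with a median of 0.66. G6pdx, its entry enzyme, had 67.2, 65.6, 67.9 and 62.3 CPM in footprints and 22.3, 20.8, 21.4 and 21.4 CPM in RNA, and the transketolase Tkt 384, 323, 346 and 388 and 254, 214, 208 and 238 CPM, with the footprints of both above their RNA in every culture. Between genotypes 0 of the 7 were called with edgeR or DESeq2 and 0 had an unadjusted p under 0.05, and their median change was -0.03 in footprints and -0.07 in RNA. Of 17 hypoxia targets, a list that shares Pdk1, Slc2a1 and Ldha with the members, 6 were higher and 6 lower in footprints relative to RNA, with a median of -0.03, beside the same 36.5% and 38.2% of all genes. Their summed level was 893 and 875 CPM in WT footprints and 956 and 898 CPM in those labelled DKO, and 783 and 810 against 780.2 and 748 CPM in RNA. Of the footprint sums, Car9 took 20.3, 32.5, 101.2 and 23.6 CPM, so that the highest sum, in DKO 1, held the highest Car9 value. Vegfa, the vascular growth factor, had 36.1, 37.6, 46.0 and 41.0 CPM in footprints and 44.5, 47.0, 62.1 and 49.4 CPM in RNA, and the mitophagy receptor Bnip3 109.7, 104, 93.8 and 117 and 93.8, 88.6, 86.9 and 73.9 CPM. Of this list too 0 genes were called between genotypes with edgeR or DESeq2, and 2 had an unadjusted edgeR p under 0.05 in footprints and 2 in RNA.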
